A study of Mus musculus with 8 samples.

Results

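Cholesterol synthesis was followed in mouse embryonic stem (ES) cells through 29 genes: 20 enzymes of the pathway, 6 genes that regulate it and 3 genes for a sterol carrier and lipid synthesis. They were taken as a fixed list and found on the arrays by the RefSeq accession of each probe, which gave 42 probes. All 29 were among the 15182 genes tested, and the probe that stood for each gene was well above background on all 8 arrays. In every group the cells were H-Ras-/- and N-Ras-/-, with K-Raslox/lox and RERTert/ert besides, so they lack H-Ras and N-Ras and lose K-Ras when 4-hydroxytamoxifen (OHT) switches on the tamoxifen-dependent Cre recombinase of the RERT allele, which the gene for the large subunit of RNA polymerase II drives. The 4 groups, with 2 one-colour Agilent arrays each, were labelled ERF-KO cells with OHT for at least 2 days, labelled ERF-KO cells untreated, ERF-WT cells with OHT for at least 2 days and ERF-WT cells untreated. No group received OHT and kept RAS, so the agent and the loss of RAS cannot be told apart.

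ERF belongs to the ETS factors and represses transcription, and ERK signalling keeps it out of the nucleus. RNA came from mixtures of 2 clones, and by the source names there were 4 cell pools, A2 and B2 of the labelled knockout and A1 and B1 of the wild type, each sampled with and without OHT. The 2 replicates of a group are therefore 2 pools, and values below are given with the A pool before the B pool. On the log2 scale relative to the 75th percentile of each array, which is the scale of every level given here, Erf stood at 3.73 and 5.13 in labelled knockout cells with OHT and at 3.25 and 5.42 in those without, against 4.79 and 4.73 in wild type cells with OHT and 4.91 and 5.21 in those without. Pool A2 was low and pool B2 lay near the wild type, and since the position of the probe within the gene is not known here, its signal does not check the label. Between 54.0% and 63.6% of spots were well above background on an array, and no spot was saturated. Parts of some arrays were dark, with 2677 and 1245 spots in such patches on the OHT arrays of pools A2 and B2, 179 and 256 on the untreated arrays of these pools, 2 and 7 on the OHT arrays of pools A1 and B1, and 843 and 39 on their untreated arrays. The probes standing for 7 of the 29 genes lay in a patch on 1 array each, and values with and without that spot are given, except for Pmvk and Idi1, whose spot was also flagged as an outlier and has no value.

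Cells make cholesterol from acetyl-CoA. Enzymes of the mevalonate pathway build isoprenoid units, which farnesyl diphosphate synthase joins and squalene synthase commits to sterols, and a chain of reductases, demethylases and an isomerase turns lanosterol into cholesterol. When sterols in the endoplasmic reticulum run low, the escort protein SCAP carries the SREBP transcription factors to the Golgi, where proteases free their active part, and SREBPs then switch on most genes of the pathway together. INSIG proteins hold SCAP back when sterols are plentiful. Isoprenoids made on the way are also attached to RAS proteins, which need this lipid to reach the membrane.

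After OHT the genes of the pathway lay mostly a little higher, by amounts that differed between cell pools. In labelled knockout cells 23 of 29 members had a positive log2 change, with a median of 0.30 against 0.04 over all genes tested, and in wild type cells 23 of 29 did, with a median of 0.16 against -0.03. Of all 15182 genes, 8414 had a positive change in labelled knockout cells and 7057 in wild type cells. In the fit of 4 group means, which treats the arrays as independent, no member passed an adjusted p of 0.05 in limma (moderated test, Benjamini-Hochberg over all genes). No gene at all passed in OHT against untreated in either genotype (0% of genes in both), and 9 of 15182 (0.0593%) passed for the mean OHT effect over both genotypes. At an unadjusted p below 0.05 there were 0 members in each of these 3 comparisons, against 4.04% of all genes in labelled knockout cells, 6.09% in wild type cells and 9.45% for the mean effect. The smallest adjusted p of a member for the mean effect was 0.589, for Srebf1.

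Because a pool was sampled with and without OHT, its 2 arrays can also be set against each other. Limma with the pool as a block, dark patches left out and a trended, robust variance placed 8 of 29 members higher for the mean OHT effect, where 14.7% of all genes were called higher, and 0 of 29 lower, where 14% were called lower. In labelled knockout cells it placed 5 members higher and 0 lower, against 6.26% and 4.35% of all genes. In wild type cells it placed 1 member higher and 0 lower, against 8.11% and 9.35% of all genes. The 8 members were Hmgcs1, Mvk, Fdps, Tm7sf2, Ebp, Insig1, Srebf2 and Stard4. Their rises for the mean effect ran from 0.22 to 0.45 on the log2 scale. With the pool block and dark patches left out but the ordinary variance, 0 members were called in each OHT comparison. With the block and the trended, robust variance but dark patches kept, 3 members were called for the mean effect and 0 in either genotype.

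**Figure D1:**
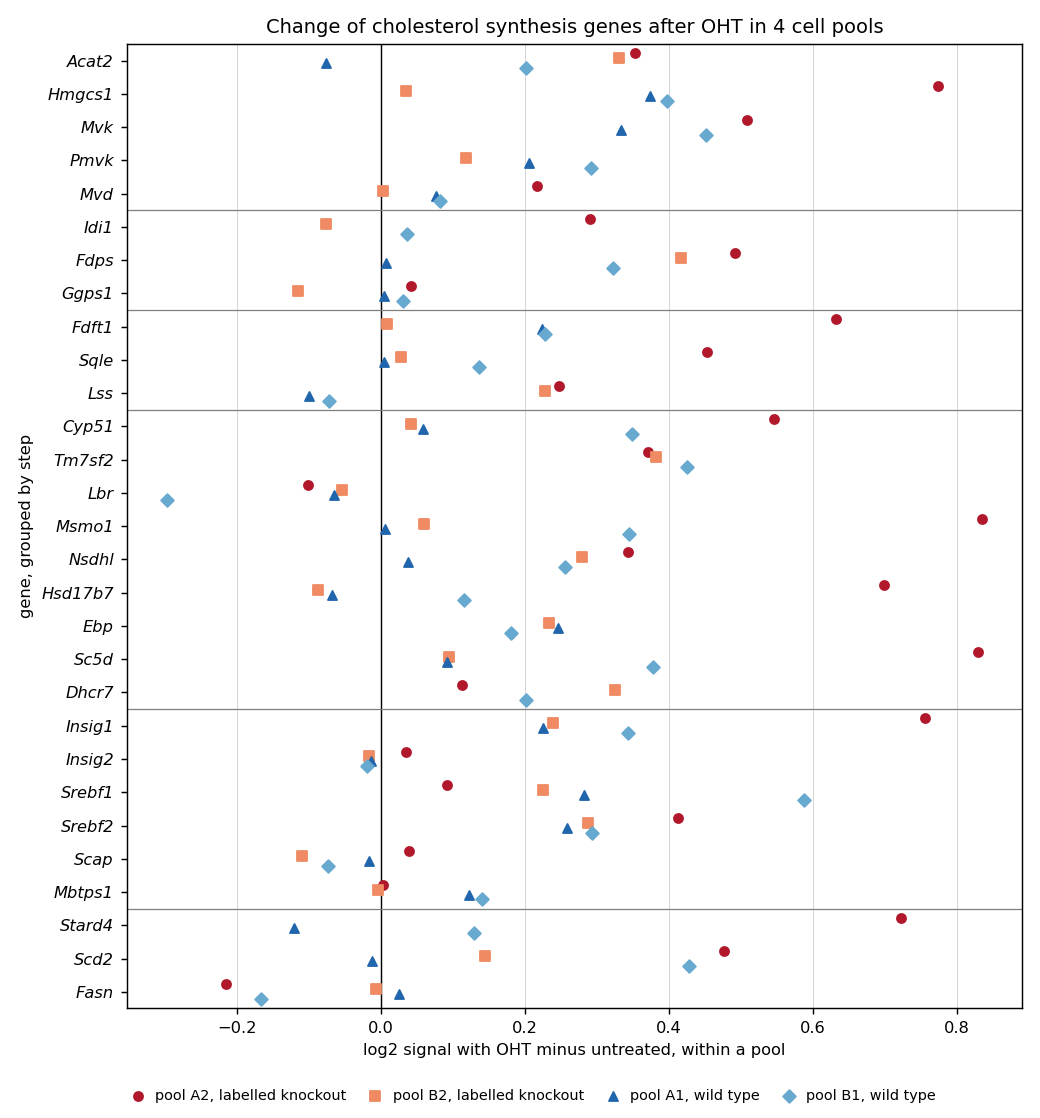
Log2 signal with OHT minus untreated within each cell pool (horizontal axis) for the 29 genes, grouped by step of the pathway, with spots in dark patches left out. Each point is 1 pool, and most points lie right of 0, with those of pool A2 furthest out for 18 of the 22 genes measured in all 4 pools.

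The first steps make mevalonate and activate it. Hmgcs1, the cytosolic HMG-CoA synthase, had 5.91 and 5.37 in labelled knockout cells with OHT against 5.14 and 5.34 without, and 5.44 and 5.73 in wild type cells with OHT against 5.07 and 5.34 without. Every pool was higher with OHT, pool B2 by only 0.04, and the arrays of the groups did not overlap in either genotype. The rise for the mean effect was 0.40 ± 0.11 (SE, 4 pools, adjusted p = 0.0389 in the pool-block fit of limma), while in the single genotypes Hmgcs1 did not pass.

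Mvk encodes mevalonate kinase. It had 3.96 and -1.05 in labelled knockout cells with OHT against 3.46 and 3.80 without, and 3.62 and 4.27 in wild type cells with OHT against 3.28 and 3.82 without. The value of -1.05 comes from a spot in a dark patch, and with it the change in labelled knockout cells was -2.17 in the group-mean fit. Without it the change was 0.51 ± 0.11 in labelled knockout cells, from pool A2 alone (adjusted p = 0.0336 in the pool-block fit of limma), and 0.39 ± 0.08 in wild type cells (adjusted p = 0.0167). A second Mvk probe outside the patches was higher with OHT in every pool, by 0.52 in A2, 0.51 in B2, 0.40 in A1 and 0.58 in B1.

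The next kinase, Pmvk, lost its OHT spot of pool A2 to an outlier flag in a dark patch, and was higher by 0.12 in B2, 0.20 in A1 and 0.29 in B1. Its second probe was higher in all 4 pools, by 0.14 to 0.43. Mvd, the decarboxylase that yields isopentenyl diphosphate, was at 0.22 in A2 and at 0.00 to 0.08 in the other pools. Acat2, the thiolase that supplies acetoacetyl-CoA, was higher by 0.35 and 0.33 in pools A2 and B2 and by 0.20 in B1, and stood at -0.08 in A1. None of these 3 genes passed in any comparison with all pools in the fit.

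Fdps, farnesyl diphosphate synthase, stands where the sterol branch leaves the other isoprenoid products. It had 5.55 and 5.95 in labelled knockout cells with OHT against 5.06 and 5.53 without, and 5.52 and 5.96 in wild type cells with OHT against 5.52 and 5.64 without. The knockout groups did not overlap, and pool A1 was at 0.01. The rise in labelled knockout cells was 0.45 ± 0.08 (adjusted p = 0.018 in the pool-block fit of limma), and in wild type cells the change was 0.16 ± 0.08 (adjusted p = 0.217). The difference between the genotypes was 0.29 ± 0.12 and did not pass (adjusted p = 0.568).

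Idi1, the isomerase that feeds Fdps, had 4.17 and 4.06 in labelled knockout cells with OHT against 3.88 and 4.14 without, and 3.65 and 4.24 in wild type cells with OHT against 4.21 in the untreated array of B1, the A1 spot being flagged as an outlier in a dark patch. The change of 0.07 ± 0.09 for the mean effect did not pass (adjusted p = 0.587). Ggps1, which makes geranylgeranyl diphosphate on the branch towards protein prenylation, was at -0.12 to 0.04 over the pools. A second Ggps1 probe stood at 0.06 in A2, -0.16 in B2, -0.04 in A1 and -0.18 in B1. Of the 3 isoprenoid genes, Fdps alone was called in the pool-block fit, where 14.7% of all genes were called higher for the mean effect.

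No squalene-stage gene was called with all pools in the fit, where 14.7% of all genes were called higher for the mean effect. Fdft1, squalene synthase, was higher by 0.63 in A2, 0.22 in A1 and 0.23 in B1, and by 0.01 in B2. Sqle, squalene epoxidase, was higher by 0.45 in A2 and by 0.00 to 0.14 elsewhere. Lss, lanosterol synthase, was higher by 0.25 and 0.23 in pools A2 and B2 and lower by 0.10 and 0.07 in A1 and B1.

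Among the 9 genes of the sterol stage, 2 were called for the mean effect, where 14.7% of all genes were called higher. Tm7sf2, a sterol reductase of the endoplasmic reticulum, had 1.39 and 2.13 in labelled knockout cells with OHT against 1.02 and 1.75 without, and 1.63 and 1.94 in wild type cells with OHT against -3.50 and 1.52 without. The value of -3.50 lies in a dark patch and made the wild type change 2.78 ± 1.52 in the group-mean fit. Without it Tm7sf2 was higher by 0.37, 0.38 and 0.42 in pools A2, B2 and B1, and the mean effect was 0.40 ± 0.08 (adjusted p = 0.0116 in the pool-block fit of limma). Its second probe was higher in all 4 pools, by 0.03 to 0.46.

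Ebp, the sterol isomerase, had 4.32 and 4.22 in labelled knockout cells with OHT against 3.65 and 3.99 without, and 4.29 and 3.99 in wild type cells with OHT against 4.05 and 3.81 without. All 4 pools were higher. The OHT spot of A2 lay in a patch although its value was not low, and without it the mean effect was 0.22 ± 0.06 (adjusted p = 0.0397 in the pool-block fit of limma), against 0.33 ± 0.15 with it in the group-mean fit.

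Several demethylation and desaturation genes had their largest change with OHT in pool A2. Msmo1, the methylsterol oxygenase, was higher by 0.83 there and by 0.34 in B1, and by 0.06 and 0.01 in B2 and A1. Sc5d, a sterol desaturase, was higher by 0.83 in A2 and 0.38 in B1, and by 0.09 in both B2 and A1. Cyp51, lanosterol demethylase, was higher by 0.55 in A2 and 0.35 in B1, and by 0.04 and 0.06 in B2 and A1. Hsd17b7, a sterol ketoreductase, was higher by 0.70 in A2 and at -0.09 to 0.12 in the other pools. A second Hsd17b7 probe stood at 0.85 in A2, 0.23 in B2, -0.09 in A1 and 0.17 in B1. None of these 4 genes passed over both genotypes with all pools in the fit.

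Nsdhl, a dehydrogenase that acts before Hsd17b7, was at 0.34, 0.28, 0.04 and 0.26 in A2, B2, A1 and B1. A second Nsdhl probe stood at 0.46, 0.25, -0.06 and 0.04 in the same order. Dhcr7, the reductase of the last step, had a dark-patch spot of -3.51 in the untreated array of A1, which made the wild type change 2.19 in the group-mean fit, and was higher by 0.11 to 0.32 in the other 3 pools. Lbr, the lamin B receptor, which carries the same reductase activity as Tm7sf2 in the nuclear envelope, was lower in all 4 pools, by 0.05 to 0.30, and was not called. A second Lbr probe did not share this, with changes of 0.57 in A2, -0.22 in B2, -0.34 in A1 and 0.19 in B1.

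Among the 6 regulators, 2 were called higher for the mean effect, against 14.7% of all genes. Both are SREBP pathway genes with opposite roles. Srebf2 encodes SREBP2, the main activator of cholesterol synthesis. It had 1.40 and 1.97 in labelled knockout cells with OHT against 0.98 and 1.68 without, and 1.94 and 2.02 in wild type cells with OHT against 1.68 and 1.72 without. All 4 pools were higher, by 0.26 to 0.41, while the knockout groups overlapped, the untreated arrays of A2 and B2 being 0.70 apart. The rise was 0.35 ± 0.09 in labelled knockout cells (adjusted p = 0.0458 in the pool-block fit of limma) and 0.31 ± 0.06 for the mean effect (adjusted p = 0.009), and a second probe was higher in all 4 pools, by 0.03 to 0.27.

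Insig1, which encodes an anchor that retains SCAP and is itself an SREBP target, had -0.01 and -0.01 in labelled knockout cells with OHT against -0.77 and -0.25 without, and -0.20 and 0.54 in wild type cells with OHT against -0.42 and 0.20 without. Every pool was higher, A2 by 0.75 and the others by 0.23 to 0.34. The mean effect was 0.39 ± 0.10 (adjusted p = 0.0259 in the pool-block fit of limma), and neither genotype alone passed.

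Srebf1, which encodes SREBP1, had -2.06 and -2.19 in labelled knockout cells with OHT against -2.15 and -2.42 without, and -2.19 and -2.11 in wild type cells with OHT against -2.47 and -2.70 without. All 4 pools were higher, but the mean effect of 0.30 ± 0.13 did not pass (adjusted p = 0.136 in the pool-block fit of limma). Insig2, the other anchor, was at -0.02 to 0.04 over the pools, Scap at -0.11 to 0.04, and Mbtps1, the first of the Golgi proteases, at 0.00 to 0.14. The second Insig2 probe stood at 0.45 and 0.28 in A2 and B2 and at -0.07 and 0.08 in A1 and B1.

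Stard4, a cytosolic sterol carrier, had 0.81 and -0.03 in labelled knockout cells with OHT against 0.09 and -0.16 without, and -0.13 and -0.09 in wild type cells with OHT against -0.01 and -0.22 without. Pool A2 with OHT stood above all other arrays. The call in labelled knockout cells, 0.72 ± 0.18 (adjusted p = 0.0483 in the pool-block fit of limma), rests on pool A2 alone, since the OHT spot of B2 lay in a patch although its value was not low. With that spot the change was 0.42 ± 0.30 in the group-mean fit, and a second Stard4 probe stood at -0.23 in A2, 0.15 in B2, -0.40 in A1 and -0.23 in B1. The mean effect of 0.36 in the pool-block fit also took its knockout part from A2 alone. In that fit the wild type change of Stard4 was 0.004.

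Scd2, a stearoyl-CoA desaturase, was higher by 0.48 in A2, 0.14 in B2 and 0.43 in B1 and stood at -0.01 in A1. Fasn, the fatty acid synthase, was lower by 0.22 in A2 and by 0.17 in B1, at -0.01 in B2 and at 0.03 in A1. Neither was called with all pools in the fit. Over the 10 second probes of members that were well above background on all arrays, and leaving out dark patches and flagged spots of either probe, 26 of 36 pool changes had the same sign as the probe that stood for the gene.

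**Figure D2:**
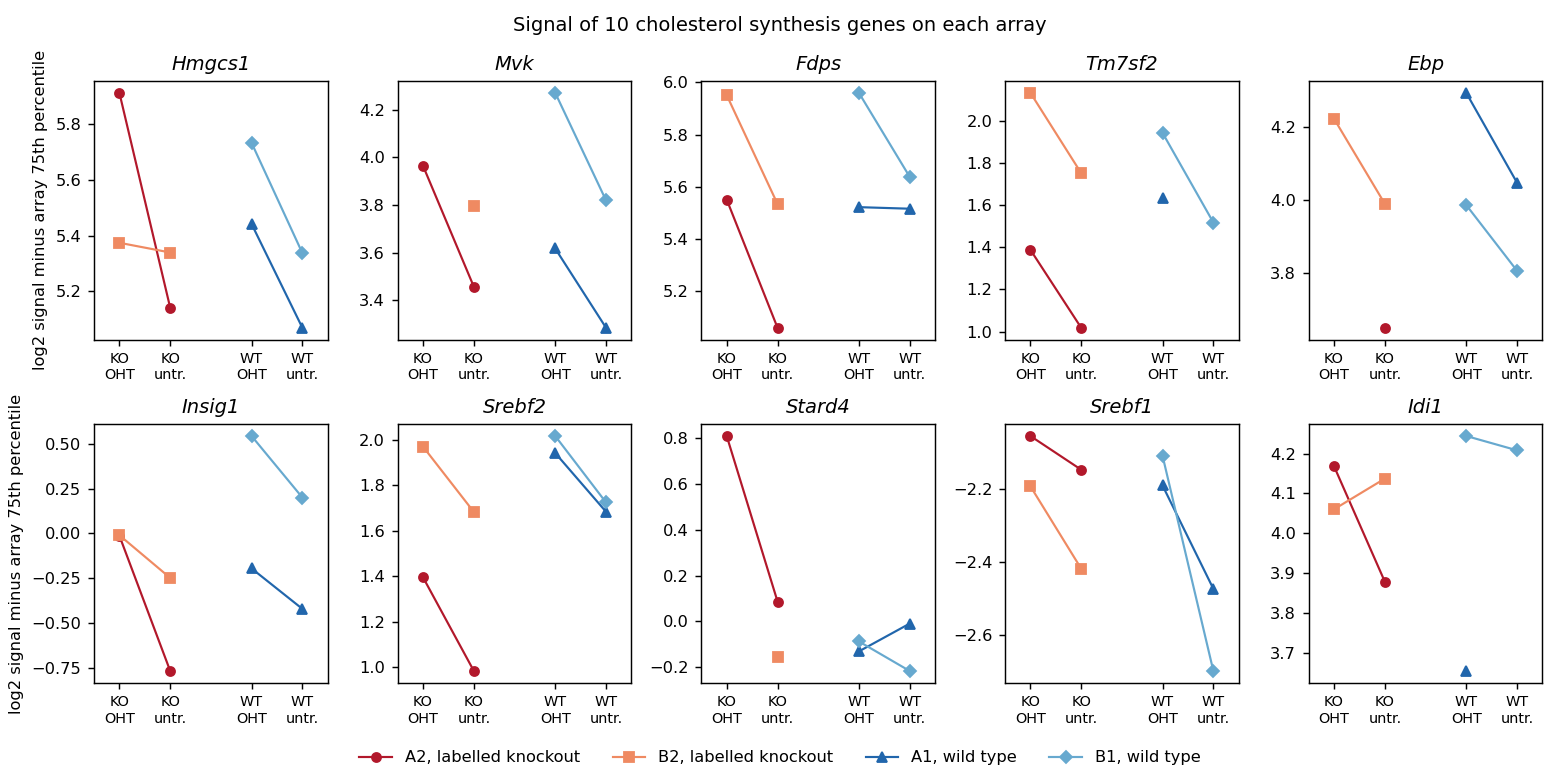
Log2 signal minus the 75th percentile of the array (vertical axis, scale set per gene) of 10 genes in labelled knockout (KO) and wild type (WT) cells with OHT and untreated (untr.). Lines join the 2 arrays of a pool and a point without a line lost its partner to a dark patch. The OHT point lies above the untreated one on most lines, and for Hmgcs1, Fdps, Insig1, Srebf2 and Srebf1 in all 4 pools.

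The pools differed in the size of the change. With dark patches left out, the median change of the members was 0.37 in A2, 0.06 in B2, 0.03 in A1 and 0.20 in B1, against medians over all genes of 0.05, 0.04, -0.04 and -0.01. In A2 25 of 27 measured members were higher, in B2 19 of 27, in A1 18 of 26 and in B1 24 of 29. Of all genes 55.8%, 55.6%, 44.3% and 49.0% were higher in the same order. A change above 0.5 was seen for 9 members in A2, for 1 (Srebf1) in B1 and for 0 in B2 and A1. The share of all genes above 0.5 was not counted in any pool, so these counts describe the members only. Of the 22 members measured in all 4 pools, 12 were higher in every one, where 24.5% of all such genes were, and 1 (Lbr) was lower in every one, where 22.1% were.

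The 12 were Hmgcs1, Mvd, Fdps, Fdft1, Sqle, Cyp51, Msmo1, Nsdhl, Sc5d, Insig1, Srebf1 and Srebf2. In labelled knockout cells both OHT arrays lay above both untreated arrays for 9 of 25 members, against 17.2% of all genes, and in wild type cells for 5 of 26, against 17.3%. Hmgcs1, Fdft1 and Nsdhl did so in both genotypes. The share of all genes that did so in both was not counted, so this is not shown to be particular to the members. In B2 Hmgcs1 and Fdft1 were higher by only 0.04 and 0.01. By its second probe Nsdhl overlapped in wild type cells, at -1.91 and -1.84 with OHT against -1.85 and -1.88 without.

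Leaving out a pool changed which genes passed the pool-block fit. Without A2 the mean effect had 5 of 27 members called higher, against 11.6% of all genes, and the labelled knockout 0 of 27, against 2.11%, with a knockout median of 0.06. Without B2 the mean effect had 14 of 27, against 15.1% of all genes, Scd2, Cyp51 and Hsd17b7 among them. The labelled knockout then had 8 of 27, against 5.35%, among them Fdft1, Sqle, Msmo1 and Sc5d but no longer Fdps, Srebf2 and Tm7sf2. Without A1 the mean effect had 4 of 29 members, Scd2 among them, against 8.35% of all genes, and without B1 it had 2 of 26, Mvk and Fdps, against 7.33%. In both cases the labelled knockout had 1 of 29 (Fdps), against 4.35% and 4.55%, and the wild type effect 0, against 2.43% and 2.36%. The wild type effect had 4 of 29 members without A2, against 9.91% of all genes, and 3 of 29 without B2, against 10.01%, and Pmvk was called in both. A pool left alone in its genotype is assumed to vary like the pools of the other genotype. No member was called lower in any of these fits.

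Markers of other cells also differed by pool. Of the 9 fibroblast markers 8 were tested, and in A2 all 7 measured outside patches were higher with OHT, with a median change of 0.89, against 0.31 in B2, 0.06 in A1 and 0.16 in B1. Signal was also summed over the 8 fibroblast markers outside patches, with Lum and without Col1a1. In units of the array's 75th percentile, this sum was 35.6 and 19.0 in labelled knockout cells with OHT against 18.8 and 17.4 without, and 14.1 and 27.2 in wild type cells with OHT against 13.5 and 24.4 without. Lum, one of the 8 summed, did not pass the filter on dim probes. The part of such cells in the rise of the cholesterol genes was not tested. All 8 ES cell markers were tested. The 7 of them outside patches summed to 261 and 432 in labelled knockout cells with OHT against 254 and 406 without, and to 358 and 362 in wild type cells with OHT against 317 and 351 without, so both arrays of A2 stood below the other 6. On all arrays the 5 primitive endoderm markers outside patches summed to 0.79 to 1.86. Of the 8 trophoblast markers 7 were tested. All 8 summed to 24.0 and 17.2 in labelled knockout cells with OHT against 22.6 and 15.4 without, and to 33.3 and 26.8 in wild type cells with OHT against 16.6 and 14.1 without. In every pool some markers of the trophoblast and ES cell lists were higher with OHT and others lower. Of the trophoblast markers tested, 4 of 7 were higher in A1 and 5 of 7 in B1. Gata2 changed by 2.81 and 2.29 in these pools and Cdx2 by -0.94 and -1.68. Of the 8 ES cell markers, 4 were higher in A1 and 5 in B1. Nanog changed there by 1.43 and 1.29 and Utf1 by -1.505 and -1.481. In bulk RNA of this kind fewer cells of a type and less RNA per cell cannot be told apart.

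**Figure D3:**
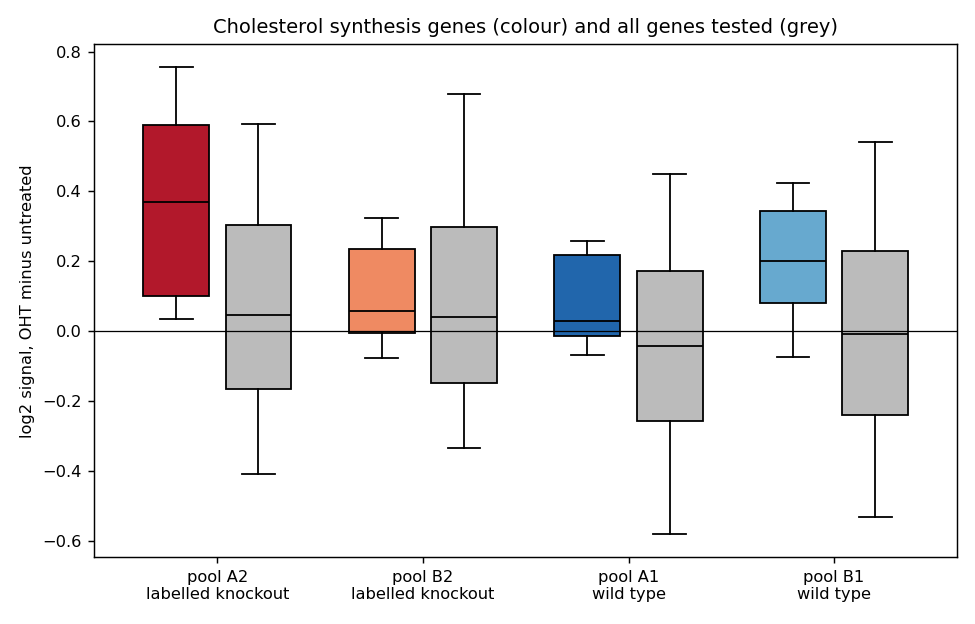
Log2 signal with OHT minus untreated in each pool (vertical axis) for the cholesterol synthesis genes (colour) and all genes tested (grey), dark patches left out. Boxes span the quartiles with the median as a line and whiskers run between the percentiles 10 and 90. The coloured median is 0.37 in A2 and 0.03 to 0.20 in the other pools.

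No difference between the genotypes passed the test. The OHT effect in labelled knockout minus that in wild type cells had a median of 0.10 over the members in the group-mean fit, against 0.05 over all genes. No gene was called in either fit (0% and 0%), with 0 members at an unadjusted p below 0.05 in the group-mean fit and 3 of 29 in the pool-block fit, Stard4, Lss and Fdps, against 1.29% and 8.58% of all genes. Labelled knockout against wild type cells, with the pool as a random block in the second fit, likewise gave no gene with OHT (0% and 0%) or untreated (0% and 0%). At an unadjusted p below 0.05 there were no members in the group-mean fit, against 2.27% of all genes with OHT and 1.28% untreated. In the pool-block fit there was 1 of 29 with OHT (Stard4, resting on A2), against 1.59% of all genes, and 0 untreated, against 0.211%.

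With OHT, A2 minus A1 had a median of 0.18 over 27 members and B2 minus B1 had -0.08 over 27, so the medians had opposite signs. Over all genes these medians were 0.03 and 0.04. Pools were matched here by their letter only. A2 and A1 shared slide 1 while B1 was on slide 2, so in B2 minus B1 genotype, pool and slide cannot be told apart. Sc5d was 1.06 higher in A2 than in A1, and Insig1 was lower in B2 than in B1, by 0.55. Untreated, the medians over members were 0.03 and -0.02, against -0.06 and -0.01 over all genes.

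The gap between pools was larger than the OHT effect for most members. Averaged over a genotype's conditions, it exceeded the OHT change for 18 of 29 members in labelled knockout cells and for 23 of 29 in wild type cells. The share of all genes with a larger gap was not counted, so this is not shown to be particular to the members. The B pool was above the A pool in each of the 4 groups for 8 of the 22 members with all values, against 30% of all genes. These were Mvd, Fdps, Lss, Msmo1, Insig1, Srebf2, Mbtps1 and Fasn, and no member was lower in the B pool in all 4, where 18.1% of all genes were. Msmo1 stood out in the wild type, where B1 exceeded A1 by 1.08 with OHT and by 0.75 untreated. Pool B1 was alone on slide 2 and the other 3 pools shared slide 1, so in the wild type pool and slide cannot be told apart, while A2 and B2 shared a slide.

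Promoters were read from a reference set of promoters (GRCm38.p6), which held 24 of the 29 genes, as 250 bases before to 50 after the start of transcription. Fdps, Fdft1, Sqle, Stard4 and Scd2 were not in this set and are not in the counts. The CCAAT box, which binds NF-Y, a partner of SREBPs, was searched as CCAAT on both strands, in any promoter of a gene, and was found for 21 of 24 genes (87.5%), against 42.4% of the genes tested. The 3 genes without it were Acat2, Scap and Mbtps1. The sterol regulatory element core, searched as TCACNCCA, was found for 3 of 24 (12.5%), namely Hmgcs1, Msmo1 and Srebf2, against 4.57% of the genes tested. The ETS core, the kind of site ERF can bind, was searched as CCGGAAG and was found for Hmgcs1, Dhcr7 and Insig2, also 3 of 24, against 17.3%. Matches of different motifs overlapped in 0 places. A match is no evidence of binding, and the spellings were set after matches had been seen. Only these spellings were searched within these bases, so a gene without a match may still have such a site.

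The promoters of 4 genes called higher after OHT are shown for their motifs, which are in capitals on either strand. Each is the 250 bases before the start, on the plus strand, at chr13:119690101-119690350 for Hmgcs1, chr5:114444019-114444268 for Mvk, chr5:28071162-28071411 for Insig1 and chr15:82147019-82147268 for Srebf2. Hmgcs1 carries all 3 motifs, with the sterol element beginning 137 bases before the start and the ETS core 87. Mvk carries 5 CCAAT boxes and neither of the other motifs.
Hmgcs1: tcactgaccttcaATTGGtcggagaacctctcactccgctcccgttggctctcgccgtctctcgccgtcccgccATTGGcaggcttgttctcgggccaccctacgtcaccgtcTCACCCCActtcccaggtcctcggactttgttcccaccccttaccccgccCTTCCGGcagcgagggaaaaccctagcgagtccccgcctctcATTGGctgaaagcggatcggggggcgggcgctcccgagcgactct
Mvk: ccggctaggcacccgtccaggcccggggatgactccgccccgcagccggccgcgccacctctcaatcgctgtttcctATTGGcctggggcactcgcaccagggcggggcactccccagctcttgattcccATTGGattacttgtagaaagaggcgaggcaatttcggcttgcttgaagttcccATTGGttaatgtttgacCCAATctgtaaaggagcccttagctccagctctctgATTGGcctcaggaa
Insig1: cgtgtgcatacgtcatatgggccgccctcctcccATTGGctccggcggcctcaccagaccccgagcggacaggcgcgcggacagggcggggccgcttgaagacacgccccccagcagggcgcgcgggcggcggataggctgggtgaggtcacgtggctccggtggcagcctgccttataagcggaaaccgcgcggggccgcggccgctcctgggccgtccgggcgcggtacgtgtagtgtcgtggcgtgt
Srebf2: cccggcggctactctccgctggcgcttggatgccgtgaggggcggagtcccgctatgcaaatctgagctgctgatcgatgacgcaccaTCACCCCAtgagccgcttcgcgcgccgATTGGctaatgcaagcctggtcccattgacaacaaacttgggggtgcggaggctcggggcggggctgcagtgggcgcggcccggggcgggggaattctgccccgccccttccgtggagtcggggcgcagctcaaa
Insig1 has a single CCAAT box, 216 bases before the start. Srebf2 has the sterol element 162 bases and a CCAAT box 135 bases before the start.

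**Figure D4:**
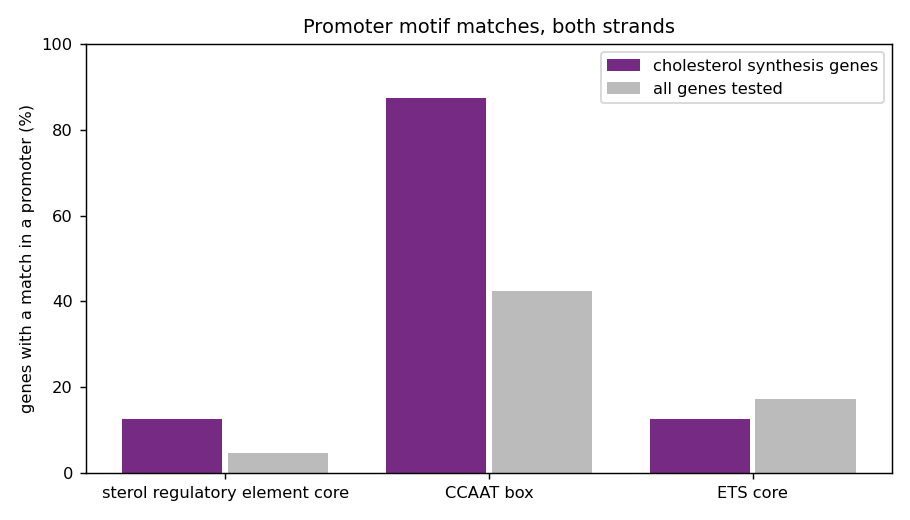
Share of genes with a motif match in a promoter (vertical axis, percent) among the 24 cholesterol synthesis genes in the promoter table and among all genes tested. The CCAAT box was present for 87.5% of the cholesterol synthesis genes and 42.4% of all genes tested.

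Neighbouring lipid pathways were mixed after OHT in the pool-block fit. Of 14 fatty acid synthesis genes, 3 were called higher and 3 lower for the mean effect, where 14.7% of all genes were called higher and 14% lower. The largest were Mid1ip1, an activator of acetyl-CoA carboxylase, at -0.77 ± 0.06 (adjusted p = 0.000161 in limma), Scd1, a stearoyl-CoA desaturase, at 0.60 ± 0.08, Acss2, which makes acetyl-CoA from acetate, at 0.49 ± 0.12 without its dark-patch spot, and Me1, which supplies NADPH, at 0.45 ± 0.06. Mid1ip1 was lower in every pool, by 0.43 and 0.66 in A2 and B2 and by 0.96 and 1.01 in A1 and B1. Acaca and Acacb, the carboxylases, were called lower too, at -0.26 and -0.29.

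Of 14 genes for sterol transport and storage, 3 were called higher and 1 lower. The shares of all genes, 14.7% higher and 14% lower, apply to each list here. With lists this short, the counts were not read as results about the pathways. Scarb1, a receptor for high-density lipoprotein, was at 0.56 ± 0.08, Npc2, which hands cholesterol out of lysosomes, at 0.55 ± 0.07 without its dark-patch spot, and Stard3, an endosomal sterol carrier, at 0.28 ± 0.06. Abcg1, a cholesterol exporter, was lower at -0.46 ± 0.08. Of 10 genes that use isoprenoids, 0 were called higher and 2 lower, Pdss1 and Pdss2, the subunits that make the side chain of coenzyme Q, at -0.32 ± 0.06 and -0.30 ± 0.09. Of 6 further genes of SREBP processing, Mbtps2, the second Golgi protease, rose by 0.41 ± 0.10 and Erlin2, a membrane protein of the endoplasmic reticulum, by 0.24 ± 0.07, and Rnf145, a ubiquitin ligase of the endoplasmic reticulum, fell by 0.48 ± 0.07. In the group-mean fit none of the genes named in these 4 lists passed.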

How the data were processed

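The measurement was total RNA on 1 Cy3 array per sample. According to the headers of the deposited files, their intensity values come from Agilent Feature Extraction (version 11.5.1.1), which removed background but did no scaling between arrays. Deposited median intensity of spot and background entered normexp, and the deposited 0 or 1 flags (well above background, outlier) entered the filters. The authors' own normalisation and tests are not known here, and the series value table was not used. Values tested were log2 signal relative to the 75th percentile of the array, with limma 3.58.1 in R 4.3.3 on 4 group means (4 residual degrees of freedom), Benjamini-Hochberg adjustment over all genes and a threshold of 0.05. Control and outlier spots were dropped, spots of a probe averaged, and a probe was kept when some group had both of its arrays well above background. The brightest probe stood for a gene. RefSeq accessions named 28026 probes. Tests are two-sided.

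The pool-block fit takes the pool as a fixed block for OHT effects (2 residual degrees of freedom) and as a random block (duplicateCorrelation) between genotypes, leaves out dark patches and uses trended, robust variances. A spot counted as in a dark patch if, of at least 10 neighbours within 3 rows and columns, 15% or more lay over 2 log2 units below their own median; this definition was chosen with the values known. The source names give the pairing: deviations of the same pool with and without OHT correlated at 0.754 (wild type) and 0.723 (labelled knockout) with patches left out, against 0.418 to 0.564 across genotypes. The labels do not say whether the pools came from separate cultures, so p-values measure only the spread between these samples, which may be technical.

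The members, lists and tests were chosen with earlier results of these data known. Values on every array are given for members called in a comparison with all arrays and pools in the fit, and for Srebf1, Srebf2, Insig1, Hmgcs1 and Idi1, and up to 4 called genes of each other list are named by size; Acaca and Acacb, beyond that number, were added after their values were seen. Scripts were tested on simulated data. Python 3.11.15 with pandas 2.3.3 and matplotlib 3.10.9 made tables and figures.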

Additional observations from a re-analysis of the deposited data

Results flagged for a closer look

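Lss, lanosterol synthase, moved one way in both labelled knockout pools (0.25 and 0.23 in A2 and B2, log2, OHT minus untreated) and the other way in both wild type pools (-0.10 and -0.07 in A1 and B1). The difference of the OHT effects was 0.32 and did not pass the test (adjusted p = 0.567 in the pool-block fit of limma). No other member measured in all 4 pools did this.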

How the results depend on the processing

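Calls depended on the pairing by pool, the dark patches and the variance together. The members' medians stayed positive under every alternative scaling, filter, block or variance for OHT in labelled knockout cells (0.24 to 0.31), in wild type cells (0.05 to 0.19) and for the mean effect (0.16 to 0.25). With the replicate block, dark patches left out and trended, robust variances, members called numbered 5 of 29 in labelled knockout cells, 1 in wild type cells and 8 for the mean effect, and all genes called 1611, 2650 and 4359. With the replicate block and the variance alone there were 3 members for the mean effect, and 514, 1563 and 3200 genes. The replicate block without dark patches, with the ordinary variance, gave 0 members and 0 genes in labelled knockout cells, and 0 members with 287 genes in wild type cells and 1769 for the mean effect, and the block alone 523 for the mean effect. For the mean effect 14 genes were called with normexp, 5 with quantile normalization, 22 when all 8 arrays had to be well above background, 4 with the mean over a gene's probes, 23 with dark patches left out and 0 with no filter on dim probes, with a slide block and within slide 1, against 9. In wild type cells 6 were called with that requirement and 3 with trended, robust variances, against 0. Mvk turned from lower to higher without its dark spot, at 0.51 in labelled knockout cells and 0.45 for the mean effect, as did Npc2 (0.45 and 0.55) and, for the mean effect, Acss2 (0.49).

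Leaving out 1 array of the group-mean fit or 1 pool of the pool-block fit gave 0 to 8 members and 0 to 1143 genes called in labelled knockout cells, 0 to 4 and 0 to 3286 in wild type cells, 0 to 14 and 0 to 3932 for the mean effect, 0 to 1 and 0 to 321 for the difference of the effects, 0 to 1 and 0 to 386 between genotypes with OHT, and 0 and 0 to 21 untreated. The single member called for the difference and with OHT was Mvk, through its dark spot, when the OHT array of A2 was left out. The medians ran from 0.059 to 0.39, from -0.050 to 0.31, from 0.12 to 0.27, from -0.094 to 0.27, from -0.087 to 0.20 and from -0.13 to 0.13 in the same order. The wild type median was below 0 without the OHT array of B1. Mvk ran from -4.68 to 0.51 in labelled knockout cells and from -2.14 to 0.48 for the mean effect, Acss2 from -3.08 to 0.71 and Npc2 from -2.85 to 0.57. Genotype comparisons with a pool left out were not run, since duplicateCorrelation returned no estimate there. Of the other values followed, for 44 genes, 202 of 6473 passed the threshold where the group-mean fit did not, with the same sign. The replicate block changed no call in the comparisons between genotypes. Precision is limited by 2 arrays a group.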
